A study of Mus musculus with 8 samples.

Results

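The genes described here are those of the mouse major histocompatibility complex (MHC), which carry symbols starting with H2-, together with B2m, the gene of the light chain that most class I proteins need. The rule took every row of the deposited table whose symbol started with H2-, which gave 39 rows, and added B2m. These 40 members stood among 22798 rows in all. By class they were 2 classical class I heavy chains, 1 light chain, 23 class I-like rows (7 of the Q, 4 of the T and 12 of the M group) and 10 class II rows. The others were 2 further class I rows with a pseudogene entry in RefSeq and 2 genes with an H2 symbol that code for no MHC protein. RefSeq also lists H2-T10, counted in the T group, and H2-Ea-ps, counted in class II, as transcribed pseudogenes. A test needed an average over the libraries of 10 or more, which 24 members and 14647 rows met. Of the 16 other members, 5 were listed at 0 in every library.

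Class I proteins hold short peptides from inside the cell at its surface, where CD8 T cells and natural killer cells read them. The classical heavy chains H2-K1 and H2-D1 present peptides widely, and fold with the B2m protein after the TAP transporter has brought in peptides cut by proteasomes. Class I-like chains have narrower roles: H2-T23 codes for Qa-1, which shows leader peptides of other class I chains to natural killer cell receptors, and H2-M3 presents peptides that start with formyl-methionine. H2-M1, H2-M9 and the H2-M10 genes are known from sensory neurons of the mouse vomeronasal organ, where they accompany pheromone receptors. Class II proteins present peptides taken up from outside, mainly on professional antigen presenting cells, and the H2-DM chains exchange the peptides they hold. In fat tissue, fat cells have been described as carrying class I and, under inflammation, class II proteins.

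Expression was measured by RNA-seq in 3T3-L1 cells, a clonal mouse line of fibroblast-like cells, of Swiss albino origin, that hormones can turn into fat cells. The stages were exponential proliferation, quiescence (48 hours of confluence), clonal expansion (10 hours after the cocktail was added) and differentiation (6 days after it), with 2 libraries each. All cells grew in DMEM with 10% serum. Those of the last 2 stages had also met the cocktail: insulin, labelled as 5 µg/µl, dexamethasone at 1 µM and isobutylmethylxanthine at 0.25 mM. It was left on for 48 hours, past the clonal expansion sampling, and insulin alone followed it, so only the differentiation cells had gone through both steps. No label states that the 2 libraries of a stage were separate cultures, so the p-values reflect library-to-library spread, possibly of technical origin.

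Values are the authors' pseudo-counts, reads per gene brought to a common library size, and their totals ran between 122413485 and 151529060 per library. These totals divided by cocktail, with 122413485 to 127369893 in the libraries before it and 146570940 to 151529060 in those after it. The fat cell markers written down for the stage labels were higher at differentiation than at clonal expansion for 11 of 11 genes (limma, adjusted p under 0.05), as were 36.8% of all tested genes. Markers that passed the filter through differentiation alone would be picked by high values there, so this count serves as description. Of 8 preadipocyte and fibroblast markers, 5 were lower at differentiation than at clonal expansion (36.2% of all tested genes were) and 3 were not called. Dlk1, a preadipocyte marker among the 5, stood at 43216 and 51599 pseudo-counts at differentiation, against 466642 and 415846 at clonal expansion. Quiescence 2 differed from quiescence 1 by transcript length: when tested genes were cut into 5 bins by length, the bin of the shortest had a median log2 difference of -0.26 and that of the longest 0.25. The tested members lay on the low side of that, with a median of -0.37, and 20 of 24 were lower in quiescence 2. The part of this library difference in the quiescence results was not tested, and results that change without one of these libraries are named below.

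Because H2-M9 and H2-M1 moved together by the widest margin, and H2-K1 and H2-D1 parted at differentiation, the 300 bases around the start of each are shown first, followed by the 2 member promoters with an interferon response core. Each runs from 250 bases before the RefSeq start to 50 bases after it, on build GRCm38.p6. Capitals mark matches, on either strand, to TTCNNTTTC (the core of an interferon response element), GGGATTCCC (a kappa B site known from the class I enhancer), CCAAT (bound by nuclear factor Y, part of the conserved class I and class II promoter module) and TGACG (the core of a cyclic AMP response element, added after the values were seen). The marked matches do not overlap one another.
H2-M9: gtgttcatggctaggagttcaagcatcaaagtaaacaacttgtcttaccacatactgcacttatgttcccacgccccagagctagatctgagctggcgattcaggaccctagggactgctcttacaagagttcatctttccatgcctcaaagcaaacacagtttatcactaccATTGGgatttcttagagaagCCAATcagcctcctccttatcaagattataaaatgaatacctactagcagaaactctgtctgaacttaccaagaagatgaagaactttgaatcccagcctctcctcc
H2-M1: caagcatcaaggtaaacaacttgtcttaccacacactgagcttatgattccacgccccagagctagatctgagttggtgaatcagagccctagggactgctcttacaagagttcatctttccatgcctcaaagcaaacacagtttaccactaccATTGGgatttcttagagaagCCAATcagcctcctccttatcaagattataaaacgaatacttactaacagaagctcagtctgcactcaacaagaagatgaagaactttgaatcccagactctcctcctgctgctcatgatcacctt
H2-K1: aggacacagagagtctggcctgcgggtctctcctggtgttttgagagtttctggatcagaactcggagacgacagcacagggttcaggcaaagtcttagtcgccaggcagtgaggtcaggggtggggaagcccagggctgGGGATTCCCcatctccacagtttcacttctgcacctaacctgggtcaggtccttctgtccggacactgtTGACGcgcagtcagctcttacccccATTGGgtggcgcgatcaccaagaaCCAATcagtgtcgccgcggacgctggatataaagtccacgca
H2-D1: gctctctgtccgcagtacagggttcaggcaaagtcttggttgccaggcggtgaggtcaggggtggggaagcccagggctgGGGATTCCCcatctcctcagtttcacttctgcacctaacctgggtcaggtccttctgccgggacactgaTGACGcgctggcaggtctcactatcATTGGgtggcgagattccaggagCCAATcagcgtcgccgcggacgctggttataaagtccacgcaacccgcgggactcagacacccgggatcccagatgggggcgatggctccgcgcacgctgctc
H2-T23: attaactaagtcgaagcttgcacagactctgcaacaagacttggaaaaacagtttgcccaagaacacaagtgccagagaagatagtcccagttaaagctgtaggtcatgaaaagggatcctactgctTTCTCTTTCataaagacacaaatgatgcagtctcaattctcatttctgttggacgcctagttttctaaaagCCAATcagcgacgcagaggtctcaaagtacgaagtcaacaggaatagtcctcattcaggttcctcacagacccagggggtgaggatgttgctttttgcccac
B2m: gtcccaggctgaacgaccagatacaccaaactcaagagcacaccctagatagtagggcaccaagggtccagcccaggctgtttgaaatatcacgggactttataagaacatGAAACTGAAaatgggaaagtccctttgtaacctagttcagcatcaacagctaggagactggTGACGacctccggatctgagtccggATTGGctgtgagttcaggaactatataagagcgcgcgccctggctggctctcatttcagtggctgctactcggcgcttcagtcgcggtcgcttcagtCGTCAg
The H2-M9 window is chr17:36642614-36642913 and the H2-M1 window chr17:36672148-36672447, both on the minus strand. Those of H2-K1 and H2-D1 are chr17:34000298-34000597 (minus) and chr17:35262844-35263143 (plus). The H2-T23 window is chr17:36032652-36032951 (minus) and that of B2m chr2:122147437-122147736 (plus).

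The H2-M9 and H2-M1 windows were 92.5% identical over 281 aligned bases, whereas the transcripts of the 2 genes were 72.1% identical over 1036. Each held 2 CCAAT boxes, in opposite orientations, and none of the other motifs. The H2-K1 and H2-D1 windows were 88.3% identical over 239 aligned bases and their transcripts 90.7% over 1581. Both held the kappa B letters, 110 bases before the H2-K1 start and 170 before the H2-D1 start, which RefSeq places at different points of the shared stretch. Of 27025 mouse promoters, 0.37% held the kappa B letters, and of the 32 members with a window 4 did, the others being H2-Q6 and H2-Q7. The interferon core was in 8.57% of all promoters and in 2 of the 32, those of H2-T23 and B2m. CCAAT was in 37.9% of all promoters and in 27 of the 32. TGACG was in 21.02% and in 13 of the 32, while the full element TGACGTCA, which contains it, was in 1.88% and in 1 of the 32. A match describes the letters and shows no binding.

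Across the stages the members differed in direction as well as in size. At quiescence, against proliferation, 4 of 24 tested members were higher (11.9% of all tested genes were) and 0 were lower (11.8% of all). At clonal expansion, against quiescence, 5 were higher (34.4% of all) and 9 lower (34.4% of all). At differentiation, 12 were higher (36.8% of all) and 5 lower (36.2% of all) than at clonal expansion. Against quiescence, 11 were higher at differentiation (33.4% of all) and 5 lower (32.9% of all), and against proliferation again 11 were higher (34.5% of all) and 5 lower (33.3% of all). The median log2 fold changes over the 24 members in these comparisons were 0.14, -0.12, 0.39, 0.44 and 0.44, and lay between -0.01 and 0.02 over all genes tested. The calls are from limma on log2(value + 1) with Benjamini-Hochberg adjustment over all 14647 genes and a threshold of 0.05, and the comparisons share libraries. H2-M9 and H2-M1, which passed the filter only through clonal expansion, are among the members called in both comparisons with that stage. Beside the 0 members called lower at quiescence, 3 (H2-Ke2, H2-M9 and H2-M1) were lower with an unadjusted p under 0.05. Scaling the libraries to the same total, which moved the median log2 fold change of all genes by -0.23 at clonal expansion and at differentiation against quiescence and by -0.27 at differentiation against proliferation, left 3 members higher and 1 lower at quiescence. At clonal expansion it left 3 higher and 9 lower, and at differentiation 6 higher and 6 lower against quiescence and 7 higher and 5 lower against proliferation. Quantile normalization gave 10 and 7 at differentiation against clonal expansion, and moved the median of all genes by -0.12 and -0.11 at differentiation against quiescence and against proliferation. Without a filter on low values 18 of the 67 member changes called over the 5 comparisons were lost, among them all 4 at quiescence. Without proliferation 2 the count of members higher at quiescence was 1, and without quiescence 1 it was 2. Without clonal expansion 1, 3 members were higher at clonal expansion. Against quiescence, 6 were higher at differentiation without quiescence 2 and 3 lower without differentiation 2, and against proliferation 7 were higher without proliferation 2. Shares of all tested genes were not taken under these alternatives, so their counts cannot be set against all genes. In bulk RNA, fewer cells expressing a gene and less RNA per cell cannot be told apart.

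**Figure D1:**
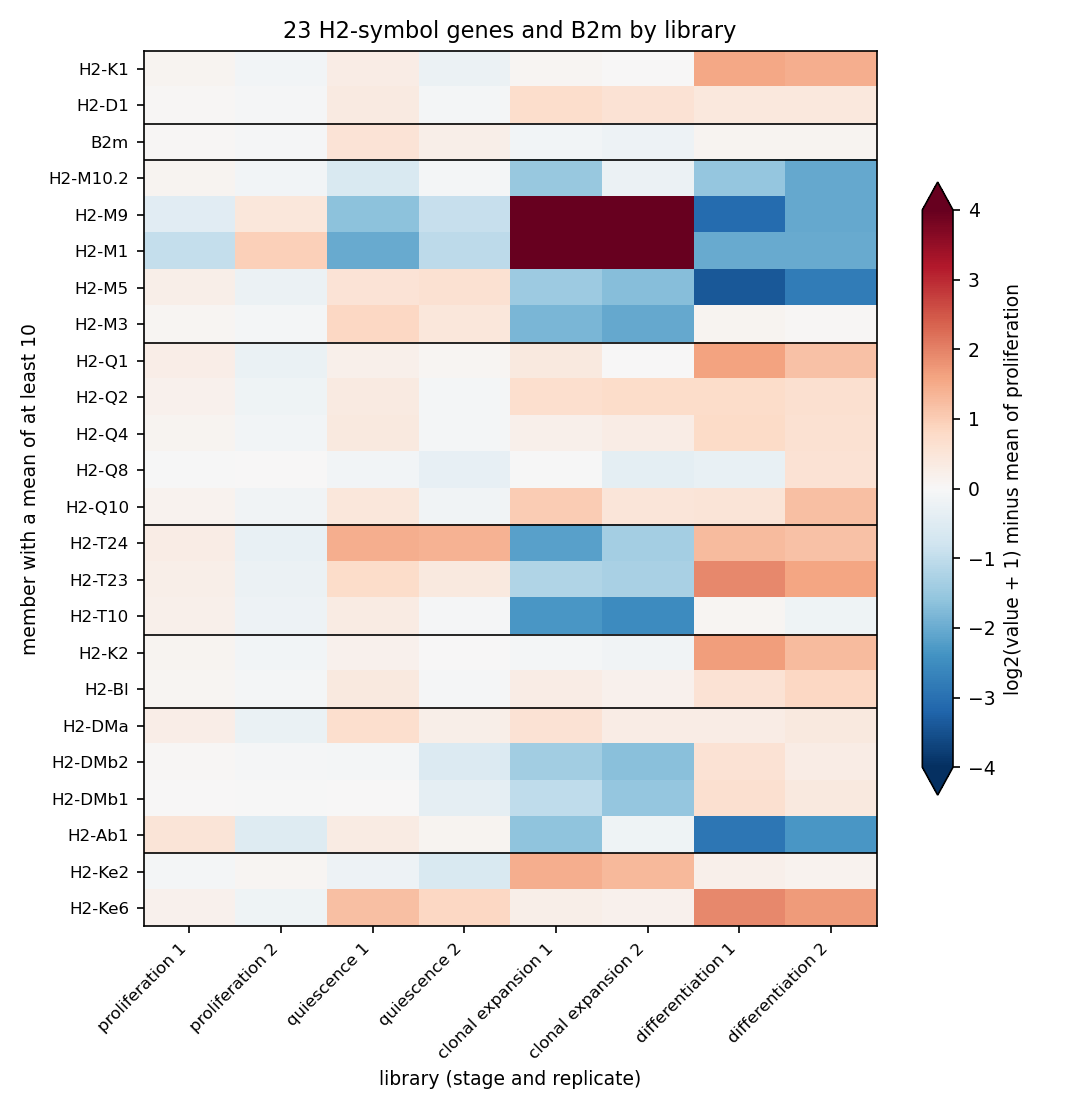
Levels of the 24 tested members in each of the 8 libraries (columns, by stage and replicate), as log2(value + 1) minus the mean of the proliferation libraries; rows are grouped by class and the colour scale ends at 4 in both directions. H2-M9 and H2-M1 pass the end of the scale in both clonal expansion libraries, the T group, H2-M3 and H2-DMb chains are palest or red elsewhere and blue there, and H2-K1, H2-K2, H2-Q1 and H2-T23 are reddest at differentiation.

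The classical heavy chains parted after the cocktail, H2-D1 being highest at clonal expansion and H2-K1 at differentiation. H2-K1 (chr17:34132957-34137278 in the table's mm9 coordinates) had 9073 and 7787 pseudo-counts in proliferating cells, 10319 and 7203 in quiescent cells, 8898 and 8580 during clonal expansion, and 24814 and 22963 at differentiation. Both differentiation libraries lay above all 6 others, while the 3 earlier stages overlapped. H2-K1 rose at differentiation by a log2 fold change of 1.45 ± 0.156 against clonal expansion (SE; adjusted p = 1.47e-05), 1.47 against quiescence and 1.51 against proliferation. Its differences at quiescence (adjusted p = 0.892, against proliferation) and at clonal expansion (log2 0.02, adjusted p = 0.92, against quiescence) did not pass the test, and the sign of the second turned under other scalings.

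H2-D1 (chr17:35400039-35404442) had 12924 and 12251 pseudo-counts in proliferating cells, 16297 and 11830 in quiescent cells, 20310 and 18835 during clonal expansion, and 17018 and 16972 at differentiation. It was highest at clonal expansion, where both libraries stood above the 6 others, and the proliferation and quiescence values overlapped. H2-D1 rose at clonal expansion by log2 0.49 ± 0.138 against quiescence (adjusted p = 0.00924) and at differentiation by 0.43 against proliferation (adjusted p = 0.018). Both calls were lost when the libraries were scaled to the same total (log2 0.26 and 0.16) or quantile normalized (0.23 and 0.27). The rise at clonal expansion was also lost without clonal expansion 1 (adjusted p = 0.057), and that at differentiation without any 1 of the 4 libraries compared (adjusted p = 0.05004 to 0.092). Its difference between differentiation and clonal expansion, log2 -0.20, had a 95% interval of -0.51 to 0.11.

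Per kilobase of transcript, the scale on which levels of different genes can be set side by side, the ratio of H2-K1 to H2-D1 was 0.911 and 0.825 in proliferating cells, 0.822 and 0.79 in quiescent cells, 0.569 and 0.591 during clonal expansion, and 1.89 and 1.76 at differentiation. H2-K1 was the lower of the pair in all 6 libraries of the earlier stages and the higher in both differentiation libraries. This switch was noticed in these values and is given as a description, with no test. H2-K1 shared no 100-base stretch with any other annotated transcript, and H2-D1 shared 4.64% of its stretches, mostly with H2-Q1.

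B2m had 54142 and 49850 pseudo-counts in proliferating cells, 75306 and 60937 in quiescent cells, 48199 and 44826 during clonal expansion, and 55793 and 55609 at differentiation. Its highest libraries were those of quiescence and its lowest those of clonal expansion, with no overlap between the 2 stages. At clonal expansion, against quiescence, B2m fell by 0.54 ± 0.12 on the log2 scale (adjusted p = 0.00243). Its rise at quiescence, log2 0.38 against proliferation (adjusted p = 0.0446), was lost under most alternatives, among them leaving out proliferation 2 (adjusted p = 0.265) or quiescence 1 (adjusted p = 0.169). At differentiation its log2 difference of 0.26 against clonal expansion missed the threshold (adjusted p = 0.0736). Per kilobase, B2m was the most abundant member at every stage, with stage means of 54084 to 79211. Per kilobase the classical heavy chains together stood at 0.187 and 0.184 of the B2m level in proliferating cells, 0.161 and 0.142 in quiescent cells, 0.27 and 0.274 during clonal expansion, and 0.361 and 0.344 at differentiation.

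**Figure D2:**
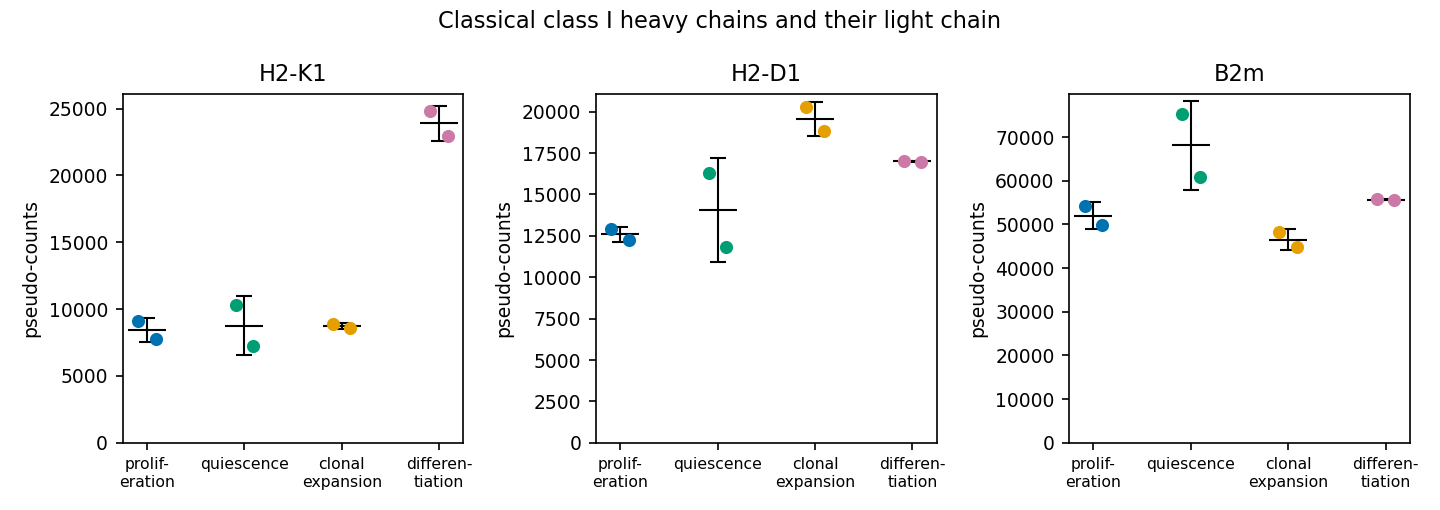
Pseudo-counts of H2-K1, H2-D1 and B2m (vertical axes, starting at 0) by stage; each point is a library, the wide bar is the mean of the 2 libraries of a stage and the capped line its SD. The 2 differentiation points of H2-K1, 24814 and 22963, stand apart from the 6 others, H2-D1 peaks at clonal expansion and B2m at quiescence.

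H2-M9 and H2-M1 were near zero at 3 stages and high at clonal expansion. H2-M9 (chr17:36777370-36779589) had 5.14 and 10.56 pseudo-counts in proliferating cells, 1.72 and 3.43 in quiescent cells, 634 and 605 during clonal expansion, and 0.00644 and 1.03 at differentiation. H2-M1 (chr17:36806953-36809142) had 1.07 and 6.82 in proliferating cells, 0 and 0.936 in quiescent cells, 457 and 442 during clonal expansion, and was listed at 0 in both differentiation libraries. For both genes the clonal expansion libraries lay far above all others, and the 2 replicates there were close to each other.

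At clonal expansion, against quiescence, H2-M9 rose by log2 7.48 ± 0.498 (adjusted p = 1.07e-06) and H2-M1 by 8.34 ± 0.64 (adjusted p = 2.36e-06). By size these ranked 10 and 8 among the rises of 14647 genes. Both genes passed the filter on the mean only through their clonal expansion libraries. The calls and ranks in comparisons with that stage thus concern genes picked by their high values there, and serve as description. With levels this low at quiescence the size depends on the pseudocount: adding 5 in place of 1 gave 6.38 for each gene, and adding 0.5 gave 7.71 for H2-M9 and 9.05 for H2-M1. At differentiation, against clonal expansion, H2-M9 fell by 8.76 on the log2 scale (adjusted p = 1.62e-07), and H2-M1, listed at 0 there, was called lower (adjusted p = 8.8e-07). H2-M9 was also called lower at differentiation than at quiescence and at proliferation, and H2-M1 than at proliferation, all from levels of 10.56 pseudo-counts or less; with a pseudocount of 5, or when single libraries were left out, the calls of H2-M9 against quiescence and of H2-M1 against proliferation were lost. Over the 8 libraries, log2 values of the 2 genes correlated at r = 0.991, a description of points that share libraries and are dominated by 1 stage. Neither transcript shares a 100-base stretch, the length of a read, with the other or with any other annotated gene.

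The remaining M genes did not follow them. H2-M3 (chr17:37407179-37411430) had 2307 and 2032 pseudo-counts in proliferating cells, 3864 and 2991 in quiescent cells, 608 and 523 during clonal expansion, and 2346 and 2258 at differentiation. It was lowest at clonal expansion in both libraries and highest at quiescence. It rose at quiescence by log2 0.65 against proliferation (adjusted p = 0.0127), a call lost without proliferation 2 (adjusted p = 0.113) or quiescence 1 (adjusted p = 0.0579). At clonal expansion, against quiescence, H2-M3 fell by 2.59 ± 0.151 on the log2 scale (adjusted p = 5.55e-07), and it rose by 2.03 at differentiation against clonal expansion (adjusted p = 1.05e-06). At differentiation it was lower than at quiescence (log2 -0.56, adjusted p = 0.00778), a call lost without differentiation 2 or quiescence 1.

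H2-M5 had 341 and 251 pseudo-counts in proliferating cells, 427 and 443 in quiescent cells, 105 and 89.0 during clonal expansion, and 27.0 and 41.6 at differentiation. Unlike H2-M3 it went on falling after clonal expansion. Its log2 fold change was -2.16 ± 0.261 at clonal expansion against quiescence (adjusted p = 4.67e-05), -1.50 at differentiation against clonal expansion (adjusted p = 0.000451) and -3.66 at differentiation against quiescence (adjusted p = 8.97e-07). H2-M10.2, a gene of the vomeronasal group, ranged from 9.69 to 46.9 pseudo-counts. It was lower at differentiation than at proliferation (log2 -1.80, adjusted p = 0.00488) and than at quiescence (log2 -1.46, adjusted p = 0.0153, a call lost without differentiation 2 or quiescence 2). Of the other 7 M genes, H2-M10.4, H2-M10.6 and H2-M11 were listed at 0 throughout, H2-M10.1, H2-M10.3 and H2-M10.5 reached 0.785, 1.44 and 1.15 in their highest library, and H2-M2 ranged from 0 to 12.1, its highest libraries being those of quiescence.

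The tested T genes shared a low at clonal expansion. H2-T10 (chr17:36254033-36258355), which RefSeq lists as a transcribed pseudogene, had 2788 and 2129 pseudo-counts in proliferating cells, 3077 and 2343 in quiescent cells, 482 and 423 during clonal expansion, and 2564 and 2162 at differentiation. H2-T23 (chr17:36166922-36169646), the Qa-1 gene, had 842 and 604 in proliferating cells, 1190 and 942 in quiescent cells, 311 and 291 during clonal expansion, and 2730 and 2146 at differentiation. H2-T24 (chr17:36142640-36157505) had 88.5 and 58.1 in proliferating cells, 200 and 189 in quiescent cells, 15.0 and 27.3 during clonal expansion, and 173 and 164 at differentiation. In each of the 3 genes both clonal expansion libraries lay below all 6 others, and H2-T23 alone among them was highest in both differentiation libraries.

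All 3 fell at clonal expansion against quiescence, with log2 fold changes of -2.57 for H2-T10, -1.81 for H2-T23 and -3.20 for H2-T24 (adjusted p = 1.4e-06, 2.46e-05 and 1.28e-05). All 3 rose at differentiation against clonal expansion, by log2 2.38, 3.00 and 2.99 in the same order (adjusted p = 1.17e-06, 4.56e-07 and 1.33e-05). Against the cells before the cocktail they diverged. H2-T23 was higher at differentiation than at quiescence (log2 1.19 ± 0.199, adjusted p = 0.00042) and than at proliferation (1.76, adjusted p = 2.45e-05). H2-T24 was higher at differentiation than at proliferation (log2 1.22, adjusted p = 0.00642, lost without proliferation 2), and also at quiescence than at proliferation (1.43, adjusted p = 0.0105, lost without proliferation 2). The level of H2-T10 passed the test in neither of the 2 comparisons of differentiation with the cells before the cocktail. The libraries did not keep strand, and H2-T23 and H2-T24 overlap the span of A930015D03Rik. The stage means of A930015D03Rik were 565, 637, 1408 and 658 from proliferation to differentiation, highest where H2-T23 and H2-T24 were lowest. H2-T10 shared 11.8% of its 100-base stretches with other transcripts, chiefly H2-T22, which is not analysed here. H2-T3, whose product is the thymus leukaemia antigen, was below the filter at 1.02 to 21.7 pseudo-counts.

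**Figure D3:**
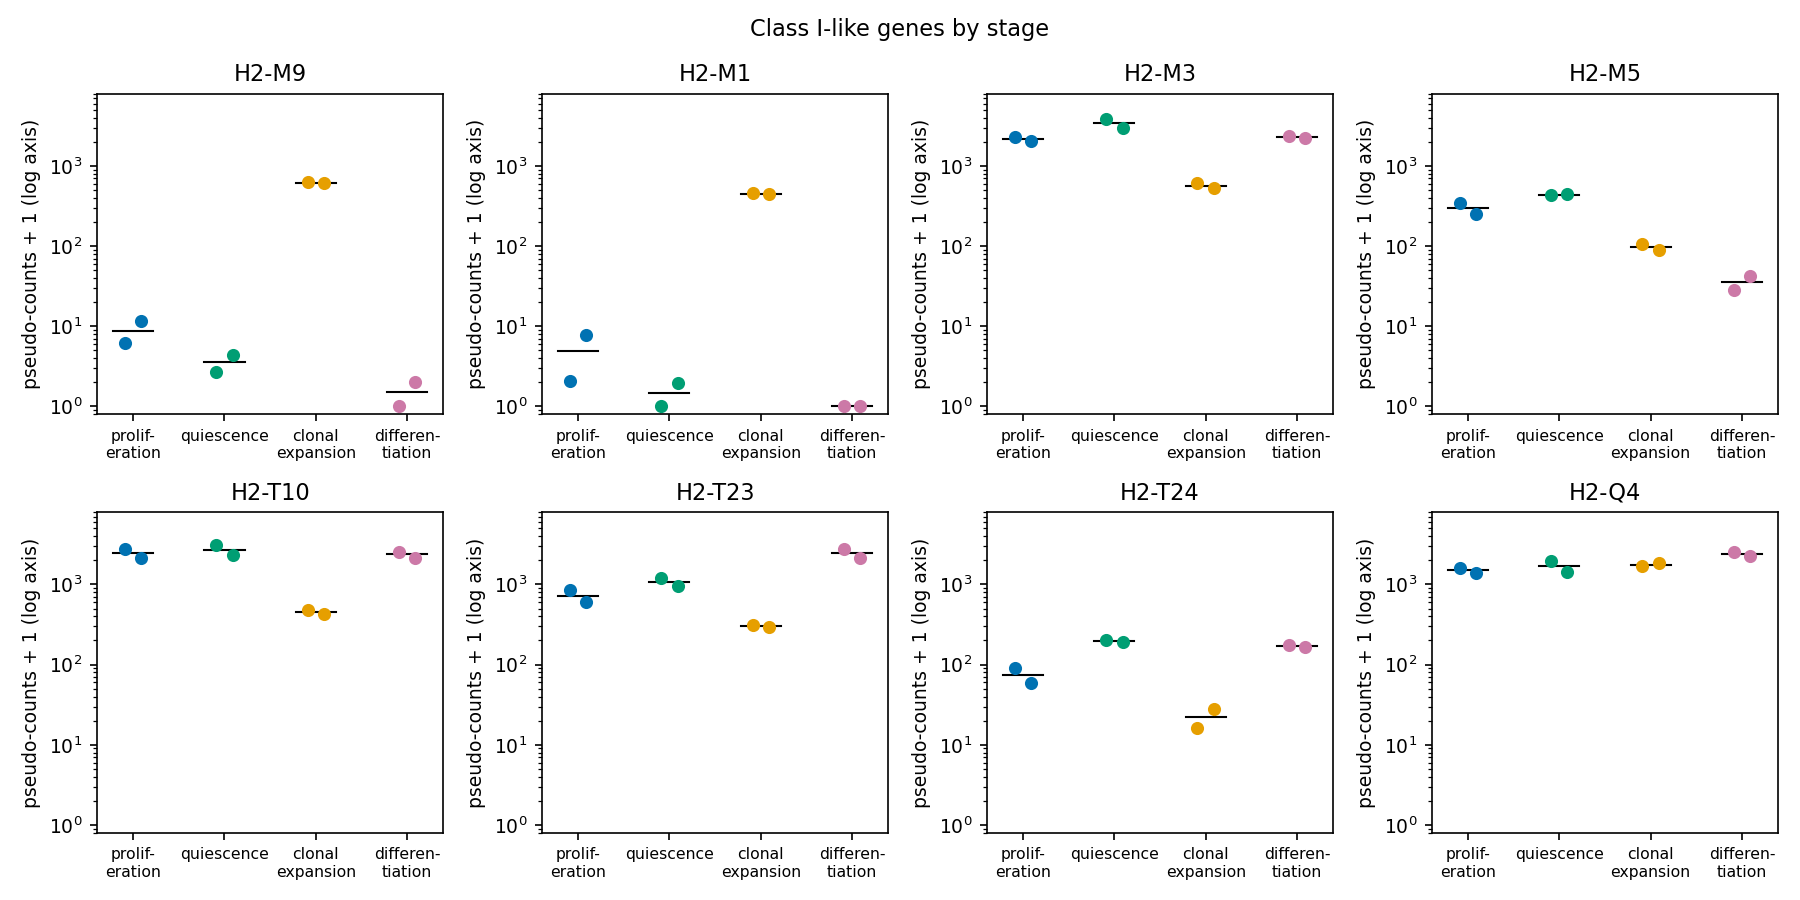
Pseudo-counts plus 1 of 8 class I-like genes by stage, on a log axis; points are libraries and the bar is the mean of the 2 libraries of a stage. H2-M9 and H2-M1 stand above 400 at clonal expansion only, H2-M3, H2-T10, H2-T23 and H2-T24 are lowest there, H2-M5 is lowest at differentiation, and H2-Q4 stays between 1390 and 2525.

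Of the 5 tested Q genes, 1 was called at clonal expansion against quiescence (H2-Q2, higher, as were 34.4% of all tested genes), and 4 were higher at differentiation than at proliferation, as were 34.5% of all. H2-Q4 had 1593 and 1390 pseudo-counts in proliferating cells, 1949 and 1413 in quiescent cells, 1712 and 1826 during clonal expansion, and 2525 and 2272 at differentiation. Both differentiation libraries were above all 6 others, which overlapped. H2-Q4 rose at differentiation by log2 0.69 ± 0.161 against proliferation (adjusted p = 0.00357). Its rises of 0.53 against quiescence and 0.44 against clonal expansion were past the threshold (adjusted p = 0.0149 and 0.0319). The first was lost without differentiation 1 or quiescence 2, and the second without any 1 of the 4 libraries compared. The first was also lost with the libraries scaled to the same total (log2 0.29), and the second with quantile normalization (log2 0.36).

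H2-Q1 had 131 and 92.3 pseudo-counts in proliferating cells, 127 and 116 in quiescent cells, 145 and 112 during clonal expansion, and 337 and 252 at differentiation. As with H2-K1, the differentiation libraries alone stood apart. H2-Q1 rose at differentiation by log2 1.40 ± 0.256 against proliferation (adjusted p = 0.000742), 1.26 against quiescence (adjusted p = 0.00154) and 1.19 against clonal expansion (adjusted p = 0.00186). The last of these was lost with quantile normalization (log2 0.49, adjusted p = 0.106). It shared 13.1% of its 100-base stretches with other transcripts, H2-Q2 and H2-D1 first among them.

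H2-Q2 had 205 and 163 pseudo-counts in proliferating cells, 234 and 175 in quiescent cells, 292 and 307 during clonal expansion, and 302 and 287 at differentiation. It was at one level before the cocktail and at a higher one after it, with no overlap between those libraries. Its rise of log2 0.56 at clonal expansion against quiescence (adjusted p = 0.0339) was lost when single libraries were left out, with an adjusted p of 0.212 without quiescence 2. At differentiation it was called higher than at proliferation (log2 0.68, adjusted p = 0.0145) and than at quiescence (log2 0.54, adjusted p = 0.0419), and these calls too were lost when single libraries were left out. Scaling the libraries to the same total also lost the rise at clonal expansion (log2 0.33) and both calls at differentiation (0.41 and 0.31). H2-Q10 ranged from 85.2 to 217 and was called higher at differentiation than at proliferation (log2 0.86, adjusted p = 0.0324), not so without differentiation 2 or either proliferation library. The H2-Q10 call was also lost with the libraries scaled to the same total (log2 0.59) or quantile normalized (0.58). H2-Q8 stayed between 15.7 and 31.8 with no call. H2-Q6 reached 6.87, and H2-Q7, one of the genes of the Qa-2 antigen, was listed at 0 throughout, in a row that spans 12 bases of the genome and so can say nothing of the gene.

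The 2 class I pseudogene rows outside the T group, H2-K2 and H2-Bl, were highest in differentiated cells. H2-K2 had 279 and 236 pseudo-counts in proliferating cells, 292 and 257 in quiescent cells, 243 and 230 during clonal expansion, and 810 and 614 at differentiation, and rose by log2 1.57 ± 0.193 at differentiation against clonal expansion (adjusted p = 3.87e-05). Over the 8 libraries its log2 values correlated with those of H2-K1 at r = 0.977. H2-K2 shared 1.98% of its 100-base stretches with other transcripts and none with H2-K1. Only exact matches were counted, and sharing of reads that align with mismatches was not tested. H2-Bl ranged from 318 to 594, was called higher at differentiation than at each earlier stage (log2 0.48 against clonal expansion, 0.53 against quiescence and 0.71 against proliferation), but none of these calls held throughout. The first was lost when any 1 of 6 libraries was left out and came to log2 0.02 with quantile normalization. The second was lost without quiescence 2 (adjusted p = 0.216) or differentiation 2 (adjusted p = 0.179), the third without differentiation 2 (adjusted p = 0.0645), and both with the libraries scaled to the same total (adjusted p = 0.19 and 0.0618).

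**Figure D4:**
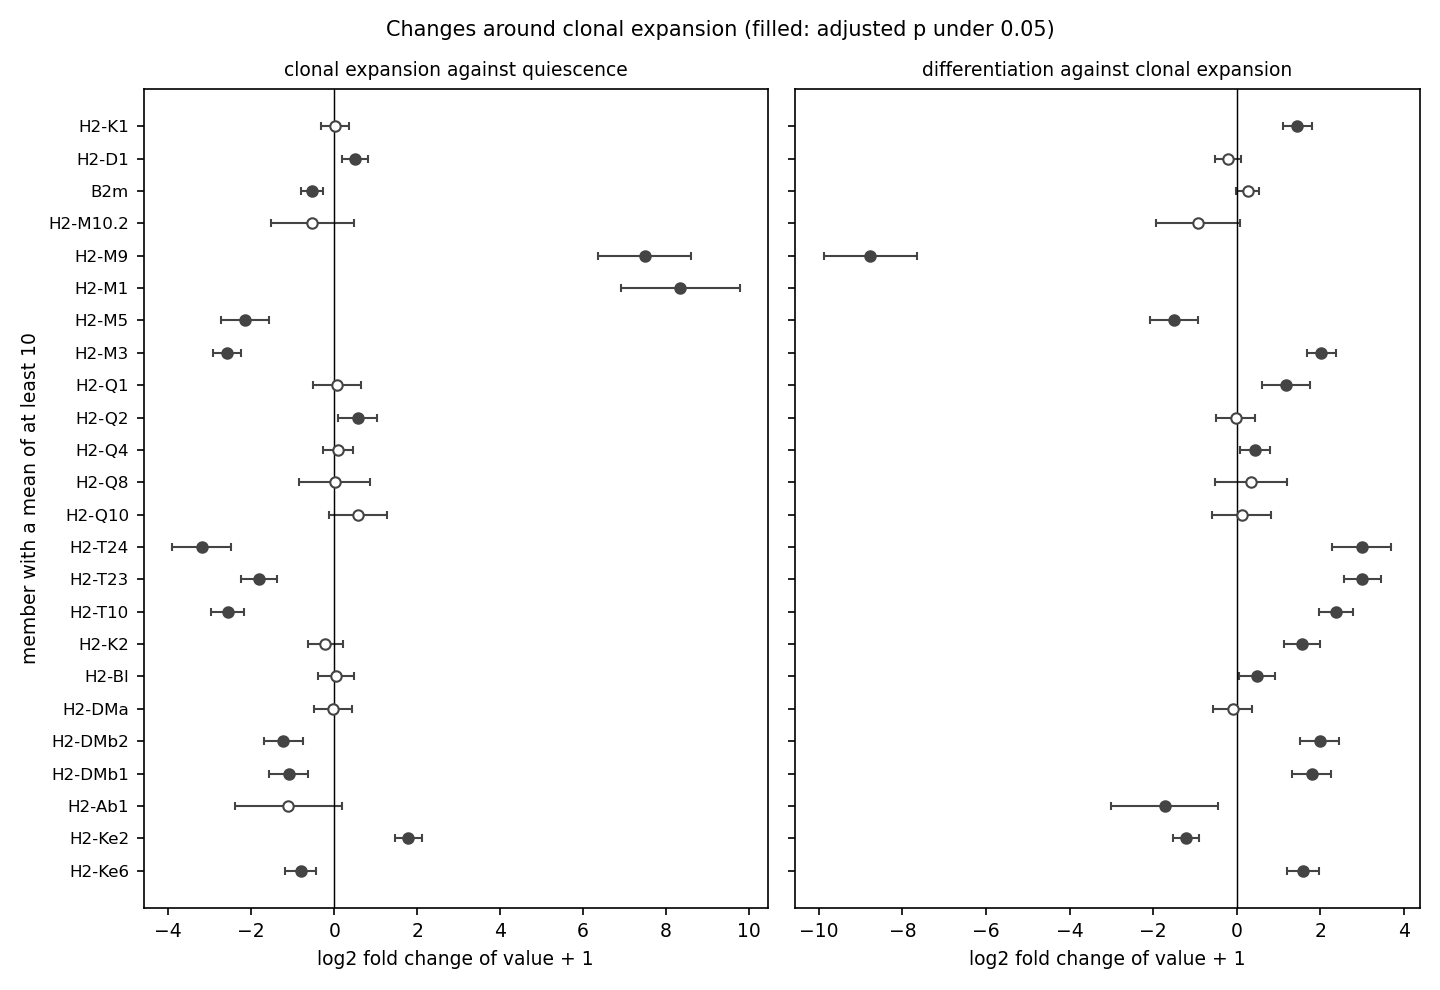
Log2 fold changes of the tested members at clonal expansion against quiescence (left) and at differentiation against clonal expansion (right), on the log2(value + 1) scale, with 95% confidence intervals from limma; filled points passed an adjusted p of 0.05. H2-M1 has no point on the right because it was listed at 0 at differentiation. H2-M3, the T group and the H2-DMb chains lie left of 0 in the left panel and right of 0 in the right panel, and H2-M9 does the reverse.

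Class II genes were represented by their DM chains and by little else. H2-DMb1 had 782 and 763 pseudo-counts in proliferating cells, 776 and 599 in quiescent cells, 384 and 263 during clonal expansion, and 1206 and 1006 at differentiation. H2-DMb2 had 472 and 442 in proliferating cells, 433 and 312 in quiescent cells, 173 and 143 during clonal expansion, and 687 and 566 at differentiation. The order of the stages was the same in both, with clonal expansion lowest and differentiation highest and no library of either stage among those of another. These 2 beta chain genes shared 179 stretches of 100 bases, 13.7% of those of H2-DMb1, so that reads may have been split between them. Their transcripts were 94.6% identical.

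At clonal expansion against quiescence H2-DMb1 fell by 1.10 and H2-DMb2 by 1.22 on the log2 scale (adjusted p = 0.000956 and 0.000458). At differentiation against clonal expansion they rose by log2 1.79 and 1.98 (adjusted p = 2.65e-05 and 1.18e-05). Their rises at differentiation against quiescence, log2 0.69 and 0.76, were lost without quiescence 2 or differentiation 1. That of H2-DMb1 was also lost with the libraries scaled to the same total (log2 0.46). The alpha chain gene H2-DMa had 971 and 678 pseudo-counts in proliferating cells, 1302 and 960 in quiescent cells, 1208 and 1003 during clonal expansion, and 993 and 1063 at differentiation, and passed the test in none of the 5 comparisons. DM protein is a pair of an alpha and a beta chain.

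The chains that present peptides were at or near zero. H2-Ab1, the beta chain of I-A, had 21.1 and 9.82 pseudo-counts in proliferating cells, 18.3 and 15.6 in quiescent cells, 4.08 and 12.6 during clonal expansion, and 1.07 and 2.06 at differentiation. Its differentiation libraries were the lowest, with a log2 fold change of -2.84 ± 0.577 against quiescence (adjusted p = 0.00153). Against clonal expansion it was -1.72 (adjusted p = 0.0207), a call lost without clonal expansion 2 or differentiation 1. H2-Aa, its alpha chain, reached 2.81, H2-Eb1 reached 0.939, H2-Ea-ps 1.03 and H2-Eb2 0. H2-Oa and H2-Ob, which restrain DM, reached 5.14 and 2.11. The 7 class II rows other than DM summed to 3.18 to 27.2 pseudo-counts per library, against 1408 to 2886 for the 3 DM rows.

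The 2 remaining members carry H2 symbols by position only. H2-Ke2 is listed by RefSeq as Pfdn6, a subunit of the chaperone prefoldin, and had 2312 and 2630 pseudo-counts in proliferating cells, 2122 and 1619 in quiescent cells, 6764 and 6034 during clonal expansion, and 2817 and 2695 at differentiation. It rose by log2 1.78 ± 0.144 at clonal expansion against quiescence (adjusted p = 3.23e-06) and fell by 1.21 at differentiation against clonal expansion. H2-Ke6, the 17-beta-hydroxysteroid dehydrogenase gene Hsd17b8, had 1325 and 1031 in proliferating cells, 2713 and 2068 in quiescent cells, 1380 and 1329 during clonal expansion, and 4393 and 3778 at differentiation. It rose at quiescence by log2 1.02 against proliferation (adjusted p = 0.00223; 0.0504 with no filter on low values), fell by 0.81 at clonal expansion against quiescence, and rose by 1.59 at differentiation against clonal expansion. H2-Ke6 shared 41.2% of its stretches with the entry Gm20427. Without this pair the counts at clonal expansion against quiescence were 4 higher (34.4% of all tested genes) and 8 lower (34.4% of all) of 22. At differentiation against clonal expansion they were 11 higher (36.8% of all) and 4 lower (36.2% of all).

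Ranked per kilobase at differentiation, B2m (64769 as a stage mean) was followed by H2-K1 (14755) and H2-D1 (8085), then by H2-Ke6 (3606) and H2-Ke2 (3415). Next came H2-T23 with 1855 and 1458 per kilobase in its 2 libraries, H2-M3 with 1631 and 1570 and H2-T10 with 1731 and 1460, which did not differ from each other beyond that spread, and H2-Q4 with 1408 and 1267. At clonal expansion the order below the classical genes changed: H2-Q4 led the class I-like genes with 955 and 1019, followed by H2-M9 with 564 and 538 and H2-M1 with 432 and 418, which overlapped H2-M3 with 423 and 364. H2-T10 had 325 and 286 there, and H2-T23 211 and 198. At the other 3 stages H2-M9 and H2-M1 were under 10 per kilobase in every library. Of the 24 tested members, 11 had their highest stage mean at differentiation, 7 at quiescence, 5 at clonal expansion and 1 at proliferation. The highest stage was not counted over all genes, so this split describes the members alone.

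Most of the genes that prepare and load class I peptides were lower at clonal expansion, and 3 abundant ones were higher. Of 13 genes on the loading list, 10 fell (34.4% of all tested genes did) and 3 rose (34.4% of all) at clonal expansion against quiescence. Their median log2 fold change was -0.99, against -0.01 over all genes tested. Psmb8 and Psmb9, subunits of the immunoproteasome, fell by 2.35 and 2.14 on the log2 scale, and Tap2, Tapbp and Tap1, the transporter chains and tapasin, by 1.60, 1.38 and 0.91. Tap1 had 2217 and 1799 pseudo-counts at clonal expansion, against 4169 and 3375 at quiescence, with no overlap. The genes that rose were Calr (log2 1.30), Canx (1.08) and Pdia3 (0.72), general chaperones of the endoplasmic reticulum that also serve class I folding. With them the summed level of the list was higher at clonal expansion, at 864418 to 919918 pseudo-counts, against 446188 to 509543 at quiescence.

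At differentiation against clonal expansion 8 of the 13 rose (36.8% of all tested genes did) and 3 fell (36.2% of all). Tap2 rose by log2 1.90, Tapbpl, a relative of tapasin, by 1.76, and Psme2, a proteasome activator subunit, by 1.41. The 3 chaperone genes fell, with log2 fold changes of -1.40 for Pdia3, -1.01 for Calr and -0.53 for Canx. Tap1 did not rise with Tap2: it had 1708 and 1411 pseudo-counts at differentiation, against 2217 and 1799 at clonal expansion (log2 -0.36, adjusted p = 0.0893). Against quiescence, 3 of the 13 were higher at differentiation (33.4% of all) and 7 lower (32.9% of all). Among those lower were Tap1 (log2 -1.27), Psmb8 (-1.16), Psmb9 (-1.07) and Tapbp (-0.79), while H2-K1 and H2-T23 were higher. Against proliferation, 5 were higher at differentiation (34.5% of all), led by Tap2 (log2 1.15), and 3 lower (33.3% of all), led by Tap1 (-1.10). At quiescence against proliferation, 4 were higher (11.9% of all), led by Psmb8 (log2 1.05) and Tap2 (0.85). None, 0, were lower (11.8% of all), with 0 at an unadjusted p under 0.05 in limma.

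Of 23 tested regulators of MHC and interferon genes, 7 were higher and 9 lower at differentiation than at clonal expansion. These counts were near the shares of all tested genes, 36.8% and 36.2%. Nlrc5, the transactivator of class I genes, had 1467 and 1627 pseudo-counts at differentiation, against 148 and 150 at clonal expansion, a log2 fold change of 3.36 ± 0.203 (adjusted p = 2.38e-07). Ifngr1, a chain of the interferon gamma receptor, rose by log2 1.71 and Irf1 by 1.15 in the same comparison. Socs1, an inhibitor of interferon signalling, fell by 2.52 and Nfya, a subunit of nuclear factor Y, by 1.59. At clonal expansion against quiescence 7 were higher (34.4% of all), led by Jak2 (log2 1.03), and 9 lower (34.4% of all). Among those lower, Irf1 fell by 1.39, Stat2 by 1.29 and Nlrc5 by 0.97. Nlrc5 was also higher at differentiation than at quiescence, by log2 2.39, and than at proliferation, by 2.43. Against quiescence 5 of the 23 were higher (33.4% of all) and 12 lower (32.9% of all). Against proliferation 6 were higher (34.5% of all) and 12 lower (33.3% of all). At quiescence against proliferation Socs1 (log2 0.58) and Irf1 (0.50) were higher (11.9% of all) and 0 lower (11.8% of all), again with 0 at an unadjusted p under 0.05 in limma.

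**Figure D5:**
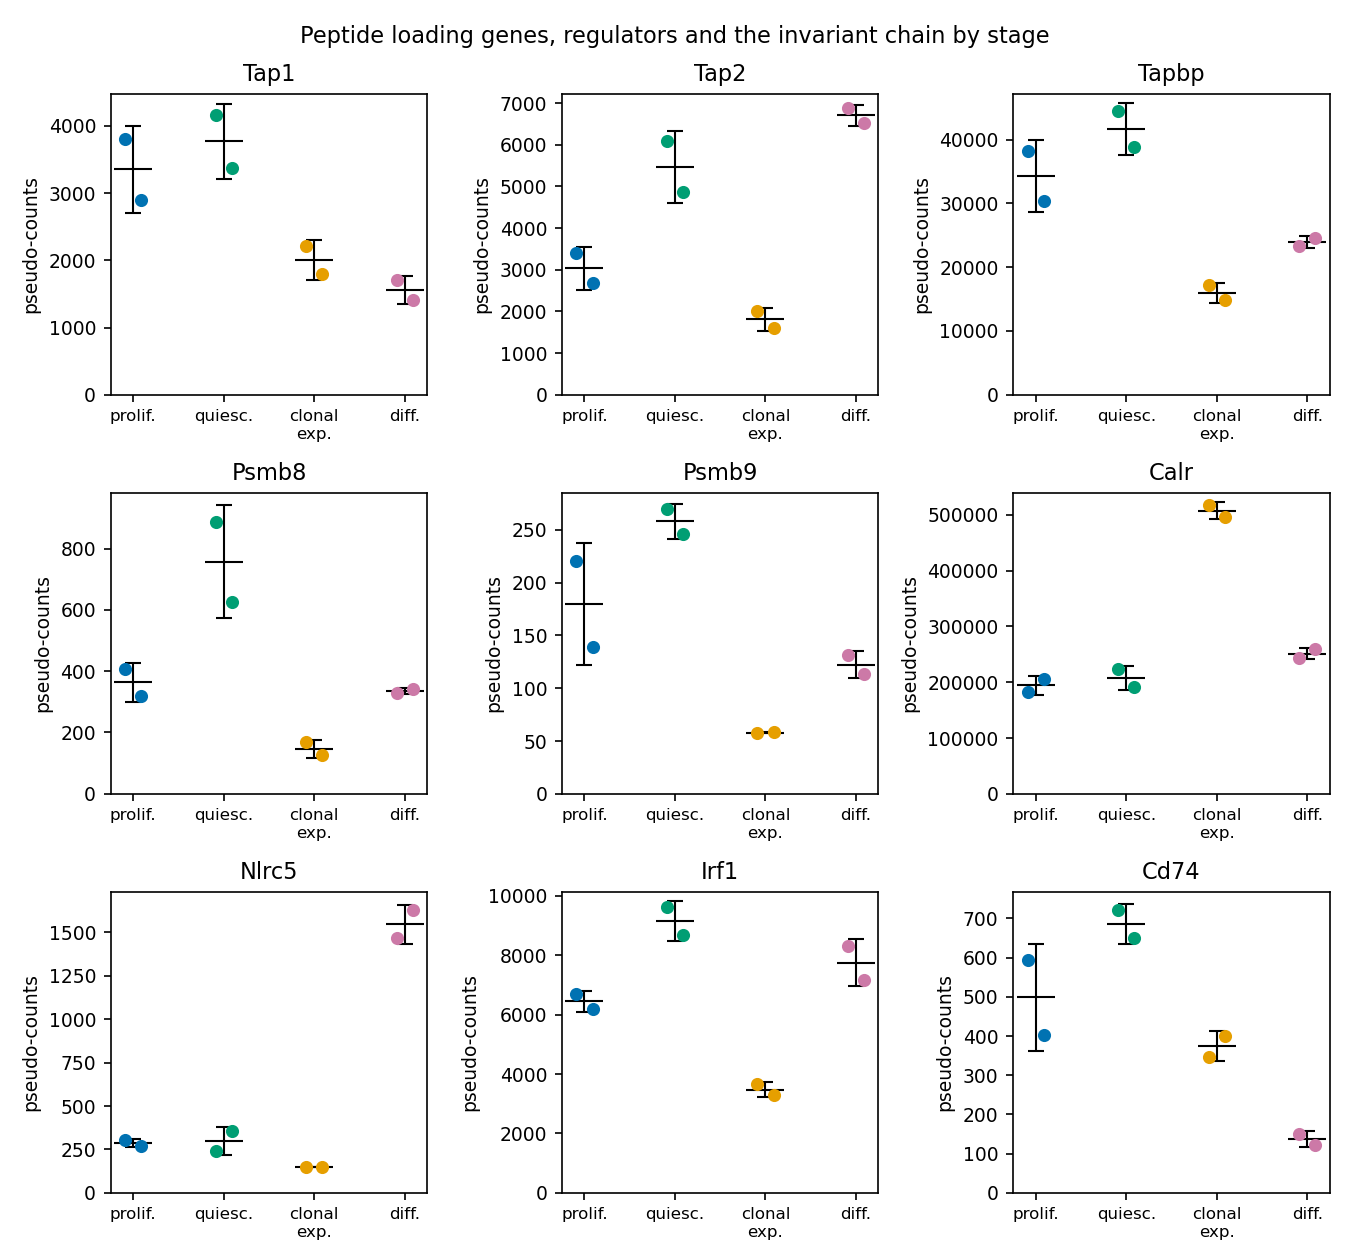
Pseudo-counts by stage of peptide loading genes (Tap1, Tap2, Tapbp, Psmb8, Psmb9, Calr), regulators (Nlrc5, Irf1) and the invariant chain gene Cd74; points are libraries, the wide bar is the mean of 2 and the capped line its SD, and each vertical axis starts at 0. Nlrc5 is highest at differentiation, Calr at clonal expansion, and Tap1 and Cd74 are lowest at differentiation.

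Class I-like genes outside the H2 symbols were read in the same comparisons. Of 10 tested, 0 rose at clonal expansion against quiescence (34.4% of all tested genes did), with 0 in limma also at an unadjusted p under 0.05. Another 5 fell (34.4% of all), among them Mr1, which presents vitamin metabolites to T cells (log2 -3.03), Mill2 (-2.92) and Fcgrt, the neonatal Fc receptor (-1.99). At differentiation against clonal expansion 4 rose (36.8% of all), led by Hfe, a regulator of iron uptake (log2 3.24), Cd1d1, which presents lipids (2.99), and Mr1 (2.68). In the same comparison 3 fell (36.2% of all), led by Procr, the endothelial protein C receptor (-2.36). Hfe had 1795 and 1632 pseudo-counts at differentiation, against 210 and 155 at clonal expansion and 123 and 109 at proliferation. Against quiescence and against proliferation, 3 of the 10 were higher and 6 lower at differentiation in each case. Of all tested genes 33.4% and 34.5% were higher there, and 32.9% and 33.3% lower. At quiescence against proliferation 3 were higher (Fcgrt, Hfe and Mr1, 11.9% of all genes being so) and 1 lower (Ulbp1, 11.8% of all being so).

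Among the class II partners, Cd74, the invariant chain, had 594 and 402 pseudo-counts in proliferating cells, 723 and 650 in quiescent cells, 346 and 401 during clonal expansion, and 151 and 122.1 at differentiation. Its differentiation libraries were the lowest, with log2 fold changes of -1.45 against clonal expansion and -2.33 against quiescence (adjusted p = 0.000168 and 6.69e-06). Ciita, the class II transactivator, ranged from 38.1 to 130 with overlapping stages and no call. Of the 4 tested partners, 3 fell and 0 rose at clonal expansion against quiescence (0 in limma also at an unadjusted p under 0.05). Of all tested genes 34.4% fell and 34.4% rose in that comparison. At differentiation 1 rose (Lgmn) and 1 fell (Cd74) against clonal expansion, where 36.8% of all tested genes rose and 36.2% fell. Against quiescence 2 fell at differentiation (32.9% of all) and against proliferation 1 (33.3% of all). At quiescence 1 rose (Ifi30) against proliferation (11.9% of all).

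Some blood cells express both MHC classes strongly, and epithelial and endothelial cells can carry them too, so markers of these cells were read in the same libraries. Of a list of 20 blood cell markers the table held 19, and 9 could be tested. Cd3e was 0 in every library, and the highest values of Ptprc, Emr1, Tyrobp and Cd86 were 2.73, 1.03, 1.52 and 2.05 pseudo-counts. Lyz2 (376 to 4318), Cd14 (469 to 2004), Cd68 (237 to 402), Aif1 (21.8 to 245) and Csf1r (31.8 to 201) were detected. The summed level of the list was 5256 to 6042 in proliferating cells, 5892 to 7511 in quiescent cells, 3700 to 4897 during clonal expansion and 1632 to 1730 at differentiation, with Lyz2 and Cd14 making up most of it at the 3 earlier stages. At clonal expansion against quiescence 2 of the 9 were higher (34.4% of all tested genes were), Itgax (log2 1.09) and Cd68 (0.59). In that comparison 2 were lower (34.4% of all), Aif1 (log2 -2.94) and Lyz2 (-1.20). Single markers went either way at differentiation against clonal expansion, where 2 of the 9 were higher (36.8% of all tested genes were) and 3 lower (36.2% of all). Those higher were Itgax, an integrin chain, with 27.9 and 25.6 pseudo-counts at differentiation, against 5.75 and 9.67 at clonal expansion (log2 1.71, adjusted p = 0.0041), and Fcer1g, an Fc receptor chain, with 57.5 and 61.0, against 38.1 and 28.6 (log2 0.82, adjusted p = 0.0399). Itgax passed the filter only through its differentiation libraries, so its call there serves as description. Nkg7, below the filter, had 11.7 and 15.3 at differentiation, against 0 and 1.15 at clonal expansion. Those lower were Lyz2, Cd14 and Csf1r.

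Of 6 epithelial markers 3 could be tested, and all 3 were higher at differentiation than at each earlier stage, as H2-K1 and H2-T23 were. So were the 11 fat cell markers, and 33.4% to 36.8% of all tested genes in the single comparisons. A marker that passed the filter only through its differentiation libraries, as Krt18 did, was picked by its values there. Calls of such a marker serve as description. Krt18, a keratin of simple epithelia, had 1711 and 801 pseudo-counts at differentiation, against 0.95 and 0.0221 at clonal expansion. Krt8, its partner, rose by log2 4.64 and Krt19 had 901 and 326, against 194 and 187 at clonal expansion, while Epcam was 0 in every library and Cdh1 and Ocln reached 14.3 and 12.4 at most. The summed level of this list was 193 to 206 in proliferating cells, 30.4 to 48.2 in quiescent cells, 191 to 200.4 during clonal expansion and 1185 to 2724 at differentiation. Of 4 tested endothelial markers, 3 (Pecam1, Tek and Vwf) were lower (34.4% of all) and 1 (Cdh5) higher (34.4% of all) at clonal expansion than at quiescence. At differentiation 2 (Pecam1 and Tek) were higher (36.8% of all) and 1 (Cdh5) lower (36.2% of all) than at clonal expansion. Their list summed to 343 to 483, 420.1 to 427, 287 to 328 and 149 to 184 pseudo-counts from proliferation to differentiation. The part of any of these cells in the MHC results was not tested. MHC genes are among the most variable between mouse strains, and the effect of aligning reads of this Swiss-derived line to mm9 on the levels was not tested.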

How the data were processed

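Total RNA from 8 libraries of 3T3-L1 cells was sequenced as unstranded single reads of 100 nt, per the labels' protocols. Each deposited value is a signal for 1 gene in 1 library: a pseudo-count that the authors made with edgeR and relative log expression (RLE) factors, as the deposited file's name says. CASAVA 1.8.2, edgeR and mm9 are named in the submitters' processing notes, and the aligner and gene models are not given in the sources used here. The values are not whole reads, so no count model was used, and the depth of each library is unknown.

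From these values, Python 3.11.15 (pandas 2.3.3, numpy 2.4.6) picked the members. In R 4.3.3, limma 3.58.1, with its trend option, modelled log2(value + 1) by stage in the 8 libraries together, for the 14647 rows that averaged 10 or more. Its two-sided p-values were adjusted over these rows by the Benjamini-Hochberg method, with a threshold of 0.05, and 4 residual degrees of freedom (9.78 with those borrowed across genes). The median standard error was 0.142 on the log2 scale. The fit was tested on simulated data first. Fold changes are on the log2(value + 1) scale and understate the change of low genes. Deviations of same-numbered libraries correlated at 0.0126 to 0.354 between stages, under 0.1 in 4 of 6 pairs of stages, so the number was not taken as pairing.

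All tested members are named. From the pathway lists, up to 3 genes per direction with the largest called change are named, and always Tap1, Tapbp, Psmb8, Psmb9, Nlrc5, Irf1, Cd74 and Ciita where they are called or their values given; some named items are not reported here. Members, lists and tests were chosen with earlier results of these data known. Alternatives were other pseudocounts, filters, scalings and fits, a replicate block, and leaving out each library. Coordinates of genes are those of the deposited table (mm9). Promoter windows are from RefSeq (GRCm38.p6), and shared 100-base stretches were counted in GENCODE M21 transcripts, 1 per gene for the members. Transcript lengths for levels per kilobase come from the same set. A stretch counted as shared only if it matched exactly, so sharing of reads with mismatches was not tested. Protein sequences were not used here.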

Additional observations from a re-analysis of the deposited data

How the results depend on the processing

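Of the 67 member changes called over the 5 comparisons, 42 were called in the same direction under every alternative in which they were tested, 3 of them (H2-M10.2 against proliferation and H2-Ab1 against quiescence and against proliferation, at differentiation) being below the mean of 50 and so not tested there. The calls of H2-Ab1 carry the limit of the filter given above. The counts of members past the threshold changed by over 1.5 times in the following cases. Without a filter on low values, 0 in place of 4 were higher at quiescence against proliferation and 3 in place of 5 at clonal expansion against quiescence. With only the 2 stages compared in the fit, 2 were higher at quiescence. With the libraries scaled to the same total, 3 were higher at clonal expansion, 6 in place of 11 at differentiation against quiescence and 7 in place of 11 against proliferation, and 1 in place of 0 was lower at quiescence, as also with the trend on transcript length removed (1). With a mean of at least 50, which leaves out low members, 2 in place of 5 were lower at differentiation against quiescence and 3 in place of 5 against proliferation. Shares of all genes under the alternatives were not taken.

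Leaving out each library in turn gave 1 to 6 members higher and 0 to 1 lower at quiescence, 3 to 5 higher and 9 to 11 lower at clonal expansion, and 10 to 13 higher and 4 to 6 lower at differentiation against clonal expansion. Against quiescence it gave 6 to 13 higher and 3 to 5 lower at differentiation, and against proliferation 7 to 12 and 4 to 5. The change of H2-K1 at clonal expansion against quiescence, not past the threshold, turned to -0.22 with the same total, -0.18 with quantile normalization, -0.01 without clonal expansion 1 and -0.24 without quiescence 2, and ran up to 0.28 without quiescence 1. The cause of these changes was not tested. With a replicate block, 5 members were higher at quiescence (main 4), 13 at differentiation against clonal expansion and 13 against proliferation, 6 were lower at differentiation against quiescence, and the 67 called changes kept their calls. With 2 libraries a stage the alternatives that leave one out lean on the spread of the other stages. The planned comparison of protein identity was not run.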
